A study of Mus musculus with 16 samples.

Results

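The D-type cyclins, the kinases they bind and the inhibitors of those kinases were followed across the 4 groups of an experiment on mouse oligodendrocyte precursor cells (OPCs). The genes were taken by name: Ccnd1, Ccnd2 and Ccnd3 (D-type cyclins), Cdk4 and Cdk6 (their kinases), Cdkn1a, Cdkn1b and Cdkn1c (Cip/Kip inhibitors) and Cdkn2a and Cdkn2c (INK4 inhibitors). They are 10 of the 55335 genes in the count tables and of the 19764 that passed a filter on low counts, and all 10 passed it. RNA was sequenced from 16 libraries of OPCs that had been grown from neural stem cells as oligospheres and then kept for 4 days in monolayer, all on a mixed C57BL6J and 129svEmx background. The groups, with 4 libraries each, were WT (RXRg+/+) without T3, WT with T3 for 24 h, RXRgKO (RXRg-/-) without T3 and RXRgKO with T3 for 24 h. T3 is triiodothyronine, the active thyroid hormone, and RXRg is retinoid X receptor gamma, a nuclear receptor of the family whose members pair with thyroid hormone receptors on DNA. The sources used here do not give how the deletion was made, the T3 dose, or whether replicates came from separate animals or cultures, so p-values measure the spread between these libraries, which may be technical.

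A cell that commits to another division passes from G1 into S phase after D-type cyclins have bound CDK4 or CDK6 and the kinases have phosphorylated the retinoblastoma protein, which releases E2F factors. INK4 proteins bind CDK4 and CDK6 and keep the cyclin off, while Cip/Kip proteins bind cyclin-kinase complexes and mainly block CDK2. OPCs divide in response to mitogens and leave the cycle when they differentiate into myelin-forming oligodendrocytes, a step that thyroid hormone promotes in culture and for which Cdkn1b is the best known inhibitor in this lineage.

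Libraries held 18262279 to 42588442 gene counts and showed 27566 to 41671 genes with at least 1 count. The 10 genes had raw counts of 29 (Cdkn2a) to 23381 (Cdk4) per library, so counting error was small except for Cdkn2a in the WT libraries. Hr and Klf9, direct targets of thyroid hormone receptors, rose with T3 by 2.51 and 1.65 on the log2 scale in WT (adjusted p = 8.29e-05 and 0.00182, edgeR) and by 3.21 and 2.25 in RXRgKO (adjusted p = 1.86e-05 and 0.00036, edgeR). The level of Rxrg, the gene targeted, did not follow the genotype as labelled: it was at 1.51 ± 0.28 CPM (counts scaled to a common library size by TMM, SD, n = 4) in WT and 4.25 ± 0.55 CPM in RXRgKO without T3, and it was higher in every RXRgKO library than in any WT library in both treatments (log2 differences of 1.48 and 2.79, adjusted p = 0.000199 and 8.8e-07, edgeR). Groups are therefore named below as their libraries are labelled, and no source used here says which part of the gene was deleted. Whether the genotype labels were exchanged was not tested, and if they were, the sign of every genotype difference below would turn. Libraries also fell into sets of close likeness, with a chi-square per gene of at most 2.12 between libraries of a set and 4.94 to 9.62 between sets of a group. The sets were WT replicate 1 against WT replicates 2 to 4 in both treatments, and, in RXRgKO, libraries that lacked Xist RNA (at most 3.75 CPM) against those with it (at least 543 CPM). Sex-linked RNA also differed with treatment inside sets. In WT replicates 2 to 4, Xist was at 1198 to 1382 CPM and the Y-linked Ddx3y at 13.9 to 15.8 CPM without T3, against 276 to 365 CPM and 68.1 to 78.3 CPM with T3. In RXRgKO libraries with Xist, Ddx3y was at 51.2 to 52.9 CPM without T3 and 20.7 to 22.1 CPM with T3. Between genotypes, only RXRgKO held libraries lacking Xist. Without T3, Ddx3y was at 13.9 to 73.3 CPM in WT and at 51.2 to 118 CPM in RXRgKO. The T3 and genotype comparisons, the ratios of library sets and the fits blocked by number therefore join libraries of different male and female make-up. The part of that make-up in the results was not tested. Results that turn on these sets are given with and without them.

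Compared per length of transcript, the 10 genes covered a wide range of levels. In CPM per kilobase of merged exons (written FPKM), Cdk4 stood highest with a mean of 174 over the 16 libraries, and its lowest library (144) lay above the highest library of any other member. Cdkn1b (mean 45.1 FPKM), Cdkn1c (35.7 FPKM) and Ccnd2 (34.3 FPKM) followed, and their ranges over libraries overlapped. Ccnd1 (15.6 FPKM) and Cdkn2c (11.3 FPKM) came next, and Cdkn2a (5.36 FPKM), Cdkn1a (4.48 FPKM), Ccnd3 (3.81 FPKM) and Cdk6 (1.73 FPKM) were lowest. Per length of the longest transcript in place of merged exons, Ccnd2 (50.9 FPKM) moved above Cdkn1b (45.1 FPKM), and Ccnd3 (8.67 FPKM) above Cdkn1a (7.66 FPKM) and Cdkn2a (7.01 FPKM). The order within these close neighbours thus rested on the length used.

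**Figure D1:**
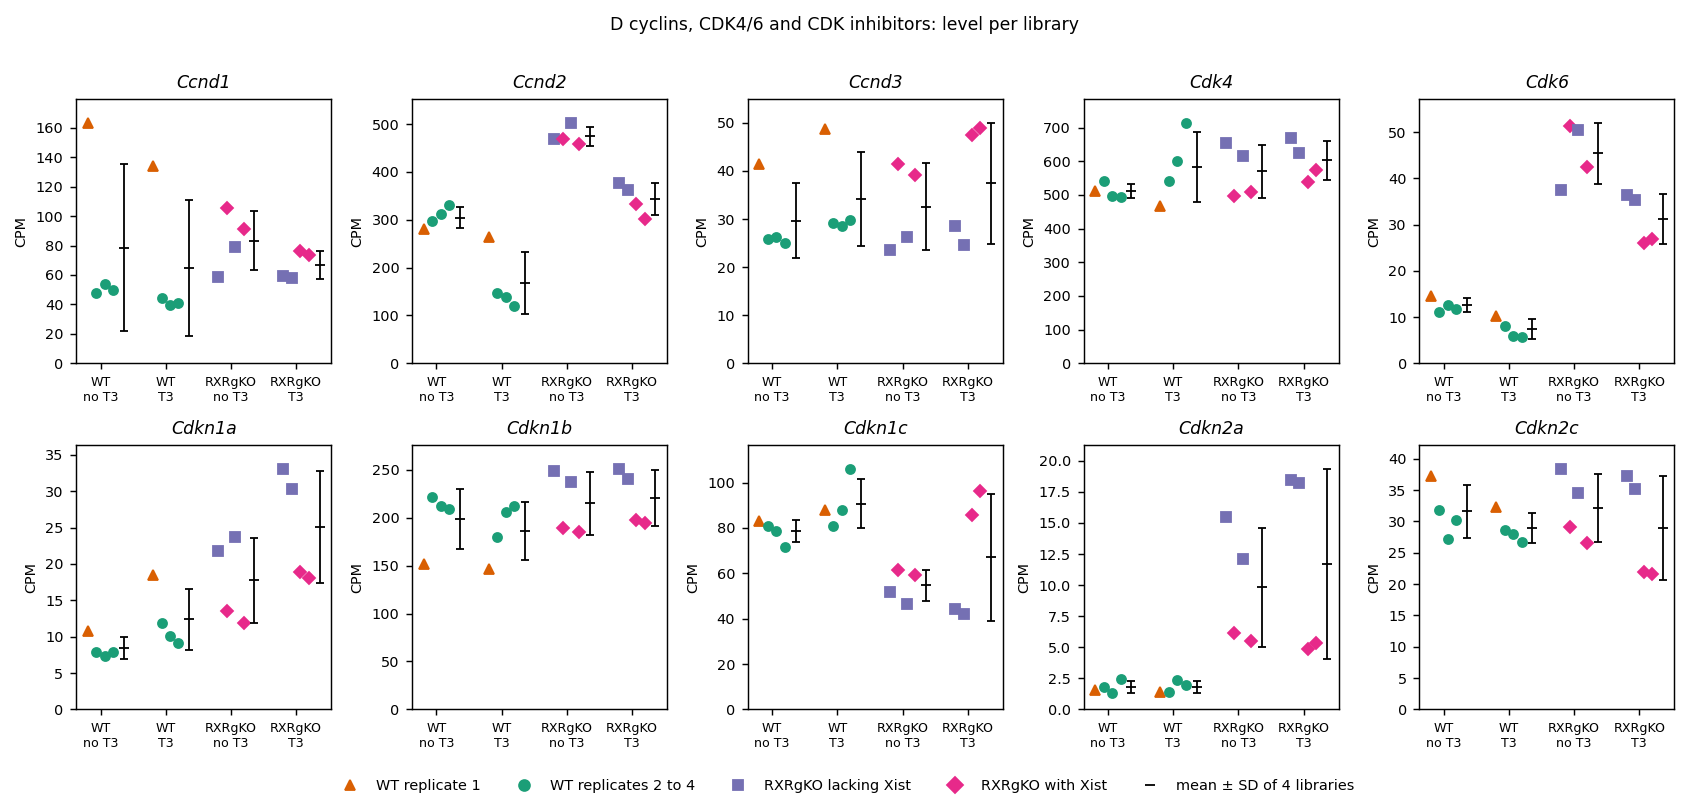
Level of each of the 10 genes in CPM (linear axis from 0) in each of the 16 libraries, by group, with symbols for the library sets and bars for the mean ± SD of 4 libraries. Cdk6 and Cdkn2a were higher in every RXRgKO library than in any WT library, and Ccnd1 and Ccnd3 were highest among WT libraries in replicate 1.

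Of the 10 genes, Ccnd2 and Cdk6 fell with T3 in WT, and Ccnd2, Cdk6, Cdkn1a and Cdkn2a were higher in RXRgKO than in WT in both treatments. Tests were edgeR quasi-likelihood tests, and a gene was called where its p-value, adjusted by Benjamini-Hochberg over all 19764 genes, was under 0.05; every adjusted p below is of this kind. With T3 in WT, 0 of the 10 were called higher and 2 lower, where 8.44% of all tested genes were called (4.96% higher and 3.48% lower). Blocked by replicate number, 4 were called there (Ccnd1, Ccnd2, Cdk6 and Cdkn1a), and the count over all genes went from 1668 to 5084. Same-numbered WT libraries deviated together, but with replicate 1 apart in both treatments this does not show a pairing by number. With T3 in RXRgKO, edgeR, DESeq2 and limma voom called 0 of the 10, and Ccnd2 and Cdk6 had an unadjusted p under 0.05, where 2.81% of all genes were called (2.01% higher and 0.794% lower). With the library set as a term in edgeR, 5 of the 10 were called in each T3 comparison (Ccnd1, Ccnd2, Ccnd3, Cdk6 and Cdkn1a), and over all genes 6511 with T3 in WT and 7080 in RXRgKO. That fit measures error by the spread inside sets, which may be technical. With counts summed per library set, 15 genes were called with T3 in WT and 3 in RXRgKO. Without T3, 4 of the 10 were called higher and 0 lower in RXRgKO, where 11.3% of all genes were called (6.17% higher and 5.16% lower). With T3 the same 4 were called higher and 0 lower, where 14.9% of all genes were called (8.1% higher and 6.8% lower). The median log2 fold change of the 10 was -0.04 (T3 in WT), 0.06 (T3 in RXRgKO), 0.15 (genotypes without T3) and 0.19 (genotypes with T3), and that of all genes was -0.03, -0.00, -0.00 and 0.02. Each genotype comparison shares a group with each T3 comparison. These are bulk libraries, in which fewer cells of a type and less RNA per cell cannot be told apart.

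**Figure D2:**
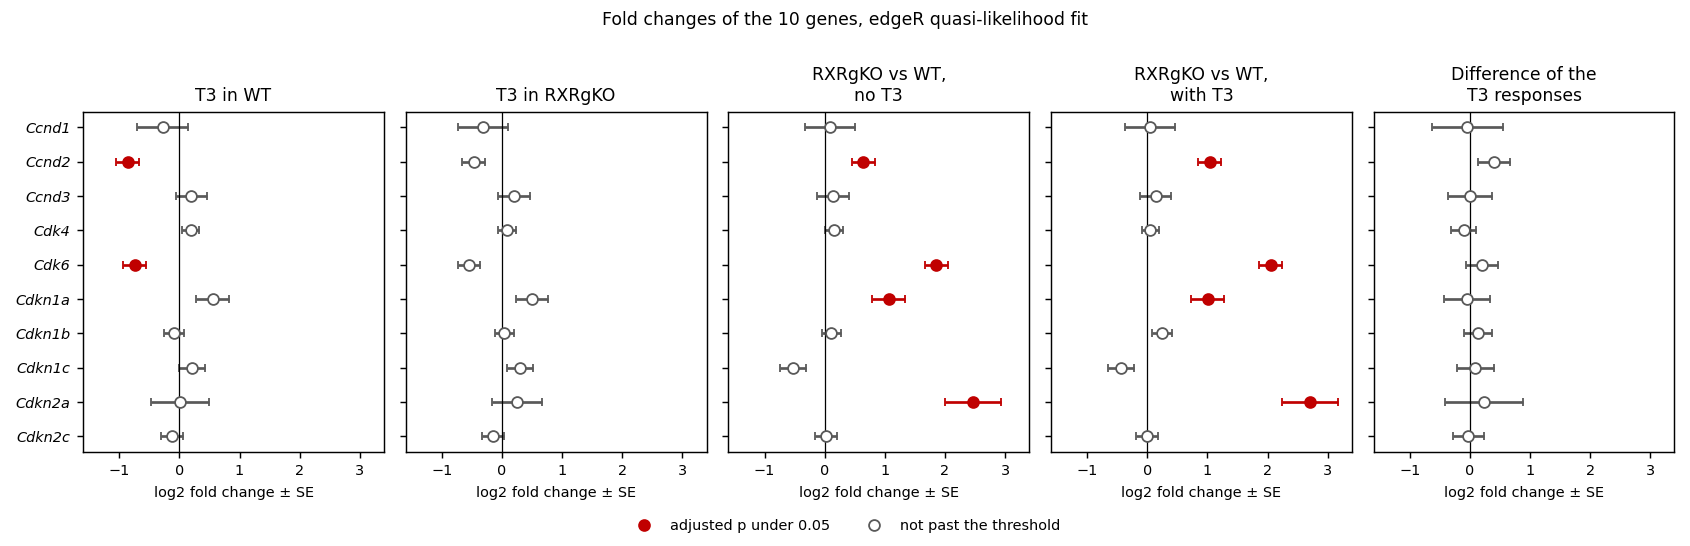
Log2 fold change ± SE of the 10 genes (rows) in the 5 comparisons (panels), from the edgeR quasi-likelihood fit on 16 libraries; filled red points passed an adjusted p of 0.05. Ccnd2 and Cdk6 lay below 0 with T3 and above 0 in RXRgKO against WT, and no point was filled for the difference of the T3 responses.

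Among the D-type cyclins, only Ccnd2 passed the test in the fit over all libraries: it fell with T3 in WT and was higher in RXRgKO than in WT, without T3 and with it. Ccnd2 (ENSMUSG00000000184, chr6:127125162-127152193 on GRCm38, minus strand) encodes cyclin D2, the D-type cyclin that dividing neural progenitors of the cortex are known to rely on. Its level was 279.8, 296, 312 and 329.9 CPM in the WT libraries without T3 and 264, 146, 139 and 120.3 CPM in those with T3. The RXRgKO libraries held 469, 468, 503 and 458 CPM without T3 and 378, 362, 333 and 301 CPM with T3. No library with T3 reached the lowest untreated library of its genotype, and WT replicate 1 with T3 lay well above the other 3 WT libraries with T3. T3 lowered Ccnd2 in WT by a log2 fold change of -0.86 ± 0.19 (SE, n = 4 per group, adjusted p = 0.00908). In RXRgKO the log2 fold change was -0.47 ± 0.19 and missed the threshold of 0.05 (adjusted p = 0.235), although the groups did not overlap. Fitted with a term for library set it was -0.48 ± 0.05 and passed (adjusted p = 1.02e-05). The error there is the spread inside sets, which may be technical. Between genotypes Ccnd2 was higher in RXRgKO by 0.64 ± 0.19 on the log2 scale without T3 (adjusted p = 0.0383) and by 1.04 ± 0.19 with T3 (adjusted p = 0.00133).

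Library sets were also compared for Ccnd2, by ratios that have no test. In WT replicate 1 the log2 ratio of T3 to untreated was -0.09 (1 library on each side), and in WT replicates 2 to 4 it was -1.21 (3 on each side). With WT replicate 1 left out of both treatments the fitted change was -1.21 ± 0.11 (adjusted p = 7.8e-06). In RXRgKO the ratio was -0.39 in the libraries lacking Xist and -0.55 in those with Xist. The genotype difference without T3 kept its size but not its call when any 1 of the 8 libraries was left out (log2 0.61 to 0.67, adjusted p 0.0711 to 0.103).

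Ccnd1 (ENSMUSG00000070348, chr7:144929931-144939925, minus strand), the mitogen-induced D-type cyclin, passed the test in none of the 5 comparisons, and its spread came mainly from WT replicate 1. Its level was 163, 47.4, 54.0 and 49.8 CPM in WT without T3 and 134, 44.7, 39.6 and 41.3 CPM in WT with T3. The RXRgKO libraries stood at 58.5, 105, 78.7 and 91.0 CPM without T3 and 59.0, 58.0, 76.0 and 73.7 CPM with T3. WT replicate 1 lay above all other libraries in both treatments, and every RXRgKO library lay above the other 3 WT libraries of its treatment. The log2 difference of RXRgKO against WT was 0.08 ± 0.42 without T3 and 0.04 ± 0.42 with T3 (95% intervals -0.83 to 0.99 and -0.87 to 0.95). With WT replicate 1 left out of both treatments it was 0.74 ± 0.18 (adjusted p = 0.0126) and 0.68 ± 0.18 (adjusted p = 0.0159). The T3 change in WT was -0.28 ± 0.42 (adjusted p = 0.751), and with the replicate number as a block, which removes the level of replicate 1, it was -0.28 ± 0.08 (adjusted p = 0.0199).

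Ccnd3 (ENSMUSG00000034165, chr17:47505051-47599691, plus strand), the D-type cyclin best known from blood and muscle lineages, ranged from 23.5 to 49.0 CPM and passed the test in no comparison. It also split by library set: it was 41.3 CPM in WT replicate 1 against 25.1 to 26.2 CPM in the other 3 untreated WT libraries, and 48.7 CPM against 28.5 to 29.9 CPM with T3. Among untreated RXRgKO libraries it stood at 39.1 and 41.4 CPM where Xist was present and at 23.5 and 26.3 CPM where it was lacking. Counts of its processed copy Ccnd3-ps were 0 to 9 per library, so few reads were assigned there. The exons of 7 of the 10 genes, Ccnd1, Ccnd2, Ccnd3, Cdk4, Cdk6, Cdkn1a and Cdkn1c, share 273 to 1100 bases with a gene on the opposite strand. The libraries were made stranded, but whether counting used the strand is not given in the sources used here. How reads from these shared bases were counted is therefore not known, and the levels of these genes may be affected.

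Cdk6 and Cdk4, the kinases that D-type cyclins bind, differed in what passed the test: Cdk6 was several-fold higher in RXRgKO than in WT and fell with T3 in WT, whereas Cdk4 passed the test in no comparison. Cdk6 (ENSMUSG00000040274) lies at chr5:3341485-3531008 and Cdk4 (ENSMUSG00000006728) at chr10:127063534-127067920, both on the plus strand. Cdk6 was at 14.6, 11.2, 12.7 and 11.7 CPM in WT without T3 and at 10.3, 7.97, 5.85 and 5.73 CPM in WT with T3. RXRgKO libraries had 37.4, 51.3, 50.5 and 42.5 CPM without T3 and 36.3, 35.4, 26.1 and 26.9 CPM with T3. The 4 groups did not overlap, with WT with T3 lowest and RXRgKO without T3 highest. Cdk6 was 3.62-fold higher in RXRgKO than in WT without T3 (log2 1.86 ± 0.19, adjusted p = 6.4e-06) and 4.16-fold higher with T3 (log2 2.06 ± 0.19, adjusted p = 2.24e-06). Each RXRgKO set lay above each WT set, with log2 ratios from 1.36 to 2.46. Leaving out the RXRgKO libraries lacking Xist, or those with it, gave log2 differences of 1.90 and 1.74 without T3 and 1.78 and 2.19 with T3. With counts summed per library set, neither difference passed. They were 1.72 ± 0.33 without T3 (adjusted p = 0.0623) and 1.87 ± 0.33 with T3 (adjusted p = 0.0544).

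T3 changed Cdk6 in WT by a log2 fold change of -0.74 ± 0.19 (adjusted p = 0.0207). In RXRgKO its log2 fold change was -0.54 ± 0.18 and missed the threshold (adjusted p = 0.135), again with no overlap between the treated and untreated libraries. Fitted with a term for library set it was -0.57 ± 0.14 and passed (adjusted p = 0.0164), with error again from the spread inside sets. The call in WT was lost when WT replicate 3 or 4 with T3, or WT replicate 1 or 3 without T3, was left out (log2 -0.63 to -0.74, adjusted p 0.0501 to 0.0843). Cdk4 was at 494 to 540.1 CPM in WT without T3, 469 to 714 CPM in WT with T3, 498 to 655 CPM in RXRgKO without T3 and 539 to 670.3 CPM in RXRgKO with T3. Its log2 fold changes ran from 0.05 (RXRgKO against WT with T3) to 0.19 (T3 in WT), with an SE of 0.14 for each.

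The stretches upstream of the start sites of both kinases are shown because these kinases share partners and only Cdk6 passed the test. They come from the RefSeq promoter table on GRCm38.p6, which held windows for 7 of the 10 members, Ccnd3, Cdk4, Cdk6, Cdkn1a, Cdkn1b, Cdkn2a and Cdkn2c, and of each window 1 run that no annotated exon covers is shown, the run with the most marked bases. For Cdk6, where 57 of the 250 bases are exonic, that run is the first 89 bases, and the rest of its window is not shown. Both are on the plus strand, 5′ to 3′, and capitals mark the E-box CACGTG, the site that Myc-family factors are known to bind.
Cdk4 chr10:127063285-127063533: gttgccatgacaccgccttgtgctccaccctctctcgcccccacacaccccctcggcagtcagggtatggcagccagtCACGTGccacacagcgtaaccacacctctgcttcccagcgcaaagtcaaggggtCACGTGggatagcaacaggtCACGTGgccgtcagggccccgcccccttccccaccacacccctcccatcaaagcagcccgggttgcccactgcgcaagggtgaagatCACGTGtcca
Cdk6 chr5:3343643-3343731: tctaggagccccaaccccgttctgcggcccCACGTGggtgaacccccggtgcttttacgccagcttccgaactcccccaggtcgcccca
An E-box was present 4 times in the 250 bases before the Cdk4 start and 1 time before the Cdk6 start, the half-site AGGTCA at 102 to 97 bases before the Cdk4 start overlapped the E-box at 98 to 93, and 6.02% of all 32851 windows of that length in the table held at least 1 (both strands searched). Neither window held a pair of AGGTCA 4 bases apart, the arrangement that thyroid hormone receptor and RXR are known to bind, which 0.0152% of windows held. A match of letters is a description of the sequence and not a measured binding site.

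Among the Cip/Kip inhibitors, Cdkn1a was higher in RXRgKO than in WT, and Cdkn1b, with the highest mean FPKM of the 3, passed the test in no comparison. Cdkn1a (ENSMUSG00000023067, chr17:29090976-29100727, plus strand) encodes the inhibitor that the tumour suppressor p53 is best known to induce. It was at 10.7, 7.90, 7.37 and 7.92 CPM in WT without T3 and at 18.5, 11.9, 10.1 and 9.15 CPM in WT with T3. The RXRgKO libraries were at 21.7, 13.6, 23.7 and 11.9 CPM without T3 and at 33.1, 30.3, 18.8 and 18.1 CPM with T3. The genotypes did not overlap without T3, and with T3 they overlapped only through WT replicate 1. Cdkn1a was 2.09-fold higher in RXRgKO without T3 (log2 1.06 ± 0.275, adjusted p = 0.0165) and 2.01-fold higher with T3 (log2 1.01 ± 0.27, adjusted p = 0.018).

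For Cdkn1a, ratios between library sets, which have no test, were higher where Xist was lacking. Against WT replicates 2 to 4 the log2 ratio was 1.55 in those libraries and 0.72 in the libraries with Xist without T3, and 1.61 and 0.83 with T3. Without the libraries lacking Xist the fitted difference was 0.58 ± 0.23 (adjusted p = 0.138) and 0.53 ± 0.22 (adjusted p = 0.139), so neither call held. The call was also lost without T3 when RXRgKO replicate 1 or 3 or WT replicate 2, 3 or 4 was left out (log2 0.89 to 1.02, adjusted p 0.0524 to 0.0664), and with T3 when RXRgKO replicate 1 or 2 or WT replicate 2, 3 or 4 was (log2 0.84 to 0.98, adjusted p 0.053 to 0.0659). The log2 ratio of T3 to untreated was 0.43 to 0.78 over the sets of both genotypes. The fitted T3 change was 0.55 ± 0.27 in WT (adjusted p = 0.255) and 0.50 ± 0.27 in RXRgKO (adjusted p = 0.383). With the replicate number as a block it was 0.51 ± 0.12 in WT (adjusted p = 0.00869).

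Cdkn1b (ENSMUSG00000003031, chr6:134920401-134925513, plus strand), the inhibitor that accumulates in differentiating OPCs, was at 152 to 221 CPM in WT without T3, 147 to 212 CPM in WT with T3, 185 to 249 CPM in RXRgKO without T3 and 194 to 251 CPM in RXRgKO with T3. Its log2 fold change with T3 was -0.09 ± 0.16 in WT (95% interval -0.45 to 0.26) and 0.04 ± 0.16 in RXRgKO (95% interval -0.32 to 0.39). The groups overlapped in each of the 4 comparisons of groups. Within RXRgKO it was again split by set, with 238 to 251 CPM in the 4 libraries lacking Xist and 185 to 197 CPM in the 4 with it.

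Cdkn1c (ENSMUSG00000037664, chr7:143458339-143461050, minus strand), an imprinted inhibitor expressed from the maternal copy, passed the test in no comparison of all libraries, and with T3 its levels split by RXRgKO set. It was at 83.1, 81.0, 78.6 and 71.6 CPM in WT without T3 and at 87.9, 80.9, 88.0 and 106 CPM in WT with T3. RXRgKO libraries gave 51.8, 61.3, 46.3 and 59.3 CPM without T3, below every WT library, and 44.3, 42.0, 85.6 and 96.4 CPM with T3. With T3, the low values belong to the libraries that lacked Xist and the high values to those with Xist. Its log2 difference of RXRgKO against WT was -0.52 ± 0.22 without T3 (adjusted p = 0.164) and -0.43 ± 0.22 with T3 (adjusted p = 0.226). Fitted on the untreated groups alone, the difference without T3 was -0.54 ± 0.12 (adjusted p = 0.015). Fitted without the RXRgKO libraries with Xist, the difference was -0.75 ± 0.14 (adjusted p = 0.00211) without T3 and -1.15 ± 0.14 (adjusted p = 6.76e-05) with T3. The T3 change in RXRgKO was 0.30 ± 0.22 over all libraries (adjusted p = 0.537), 0.58 ± 0.15 without the libraries lacking Xist (adjusted p = 0.0453) and -0.15 ± 0.15 without those with Xist (adjusted p = 0.889).

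Of the INK4 inhibitors, Cdkn2a showed the largest fold difference between genotypes of all 10 genes, and Cdkn2c showed no difference that passed the test. The Cdkn2a locus (ENSMUSG00000044303, chr4:89274471-89294653, minus strand) encodes an INK4 inhibitor, Ink4a, and, from a separate start and reading frame, Arf, which stabilises p53. Both transcripts share 1 gene identifier, so these counts do not tell them apart. Cdkn2a was at 1.54, 1.77, 1.35 and 2.44 CPM in WT without T3 and at 1.39, 1.39, 2.39 and 1.98 CPM in WT with T3. The RXRgKO libraries had 15.5, 6.16, 12.1 and 5.52 CPM without T3 and 18.5, 18.2, 4.86 and 5.37 CPM with T3. All 8 RXRgKO libraries lay above all 8 WT libraries, and within RXRgKO the libraries lacking Xist lay above those with it. Cdkn2a was 5.52-fold higher in RXRgKO without T3 (log2 2.46 ± 0.47, adjusted p = 0.00181) and 6.50-fold higher with T3 (log2 2.70 ± 0.47, adjusted p = 0.000729). Without the RXRgKO libraries lacking Xist the log2 difference was 1.71 ± 0.26 (adjusted p = 0.000825) and 1.47 ± 0.26 (adjusted p = 0.0018). With only the libraries lacking Xist it was 2.89 and 3.28. With counts summed per library set it was 2.46 ± 0.58 without T3 (adjusted p = 0.123) and 2.75 ± 0.58 with T3 (adjusted p = 0.096), and neither passed.

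With T3 the log2 change of Cdkn2a was 0.01 ± 0.49 in WT and 0.24 ± 0.42 in RXRgKO, and neither passed the test. Cdkn2c (ENSMUSG00000028551, chr4:109660876-109667189, minus strand), which encodes a further INK4 protein that binds CDK4 and CDK6, was at 27.1 to 37.2 CPM in WT without T3, 26.8 to 32.3 CPM in WT with T3, 26.5 to 38.4 CPM in RXRgKO without T3 and 21.6 to 37.2 CPM in RXRgKO with T3. Its groups overlapped in each comparison of groups. Without the RXRgKO libraries lacking Xist, Cdkn2c was lower in RXRgKO than in WT with T3 by a log2 difference of -0.46 ± 0.12 (adjusted p = 0.0236).

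The upstream stretches of Cdkn1a and Cdkn2a, the inhibitors that passed the genotype test, are shown from the same table. Cdkn1a lies on the plus strand, and the window is that of its more upstream start. Cdkn2a lies on the minus strand and has a window for the upstream Arf start and for the downstream Ink4a start. The single count does not tell which of these starts was used. In Cdkn1a, capitals mark a pair of ACATGT at a distance of 4 bases, with the bases between, an arrangement found in p53 response elements. In Cdkn2a, capitals mark the E2F site TTTCCCGC and the GC box GGGCGG of the upstream window and the half-site AGGTCA of the downstream window.
Cdkn1a upstream start chr17:29090729-29090975: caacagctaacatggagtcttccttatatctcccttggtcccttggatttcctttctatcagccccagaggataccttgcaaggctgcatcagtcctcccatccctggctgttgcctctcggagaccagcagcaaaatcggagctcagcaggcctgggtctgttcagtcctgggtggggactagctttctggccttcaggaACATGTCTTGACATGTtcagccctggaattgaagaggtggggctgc
Cdkn2a Arf start chr4:89294654-89294869: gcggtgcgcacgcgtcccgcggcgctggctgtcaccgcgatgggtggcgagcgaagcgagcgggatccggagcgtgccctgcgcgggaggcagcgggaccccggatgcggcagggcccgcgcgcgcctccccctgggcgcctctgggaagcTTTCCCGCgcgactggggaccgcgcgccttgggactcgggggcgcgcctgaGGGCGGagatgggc
Cdkn2a Ink4a start chr4:89282193-89282442: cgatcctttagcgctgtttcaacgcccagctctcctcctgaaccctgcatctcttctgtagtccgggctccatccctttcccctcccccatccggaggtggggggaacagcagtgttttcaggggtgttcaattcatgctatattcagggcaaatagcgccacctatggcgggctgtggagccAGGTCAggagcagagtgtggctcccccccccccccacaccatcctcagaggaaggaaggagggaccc
The ACATGT pair, 49 to 34 bases before the upstream Cdkn1a start, was present in 4 of the 32851 windows (0.0122%). The window of the other Cdkn1a start, whose 250 bases are all exonic and not shown, held 0 such pairs. The E2F site, searched as TTTGGCGC or TTTCCCGC on both strands, was 99 to 92 bases before the Arf start and was present in 1.3% of windows. Another GC box, 14 to 9 bases before the Arf start, lay in the exon-covered bases that are not shown. The GC box was present in 32.7% and the half-site in 14% of windows.

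Whether the T3 response of the members differed between the genotypes was tested directly as the difference of the log2 changes, RXRgKO minus WT. By edgeR 0 of the 10 passed the test, 0 had an unadjusted p under 0.05, and DESeq2 and limma voom called 0, where 0.0658% of all genes were called (0.0101% higher and 0.0557% lower). Ccnd2 had the largest difference, 0.40 ± 0.27 (95% interval -0.19 to 0.98), so its log2 changes of -0.86 in WT and -0.47 in RXRgKO were not told apart in this fit. With WT replicate 1 left out of both treatments the difference for Ccnd2 was 0.74 ± 0.15 (adjusted p = 0.0363). For Cdk6 it was 0.20 ± 0.26 (95% interval -0.37 to 0.77), and for Cdkn1a -0.06 ± 0.38 (95% interval -0.89 to 0.78).

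**Figure D3:**
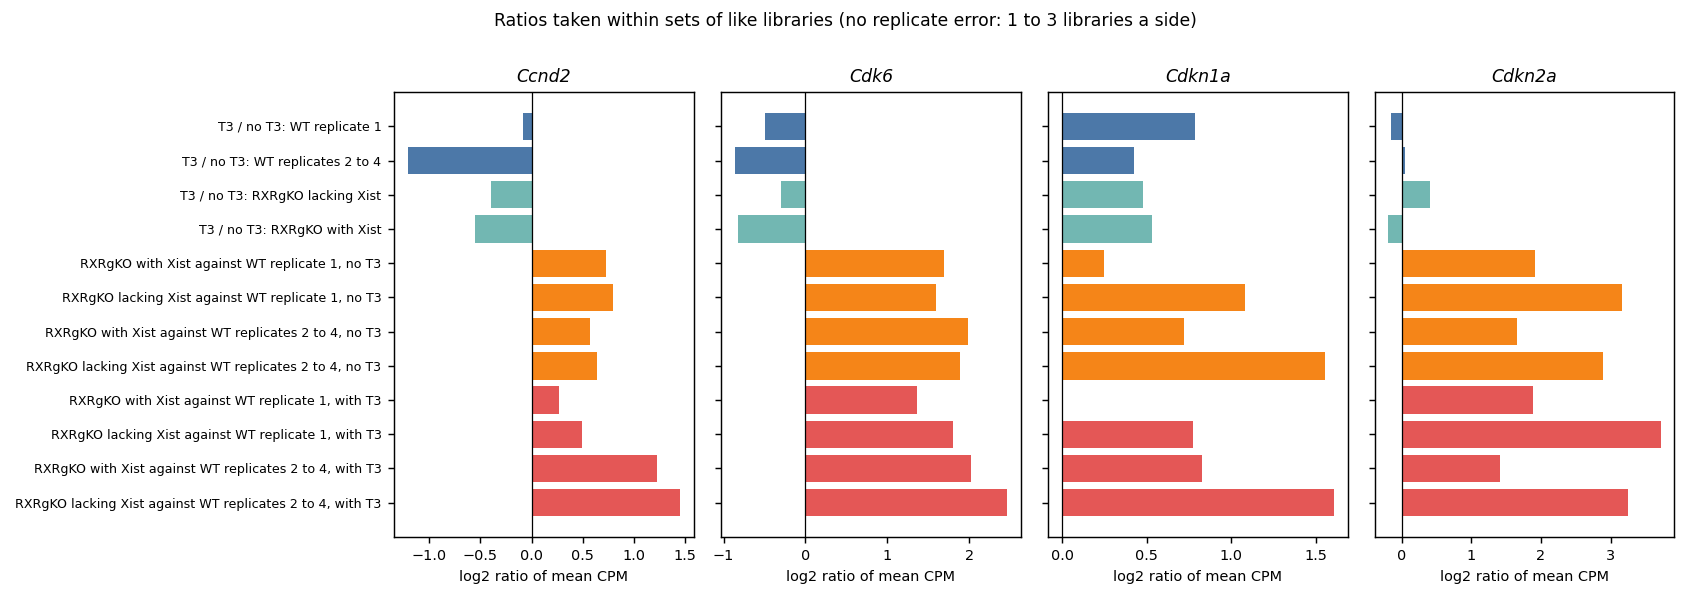
Log2 ratio of mean CPM of the 4 called genes, taken between single library sets (rows) and coloured by comparison; each side of a ratio holds 1 to 3 libraries and no error is shown. The ratios of RXRgKO to WT for Cdk6 and Cdkn2a were above 1 in each of the 8 pairings of sets, and those for Cdkn1a ran from -0.00 to 1.61.

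Shares within each family were compared by FPKM, without a test. By this measure, Ccnd2 made up 63.9% ± 13.98 (SD, n = 4) of the 3 D-type cyclins in WT without T3, 51.8% ± 4.8 in WT with T3, 70.4% ± 5.5 in RXRgKO without T3 and 66.4% ± 6.2 in RXRgKO with T3. The WT spread without T3 came from replicate 1, where Ccnd1 made up 50.2% and Ccnd2 43.0%. Cdk6 made up 0.568% ± 0.075 of Cdk4 and Cdk6 together in WT without T3, 0.315% ± 0.144 in WT with T3, 1.85% ± 0.42 in RXRgKO without T3 and 1.18% ± 0.11 in RXRgKO with T3. Thus even where Cdk6 was highest, Cdk4 transcripts made up at least 97.7% of the pair. Cdkn2a made up 11.5% ± 3.0 of Cdkn2a and Cdkn2c together in WT without T3, 12.5% ± 3.5 in WT with T3, 39.4% ± 8.1 in RXRgKO without T3 and 44.4% ± 10.9 in RXRgKO with T3. Cdkn1a was the smallest of the Cip/Kip genes, at 2.86% ± 0.72, 4.05% ± 1.73, 6.24% ± 1.69 and 8.10% ± 2.90 of the 3 in the same order of groups.

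**Figure D4:**
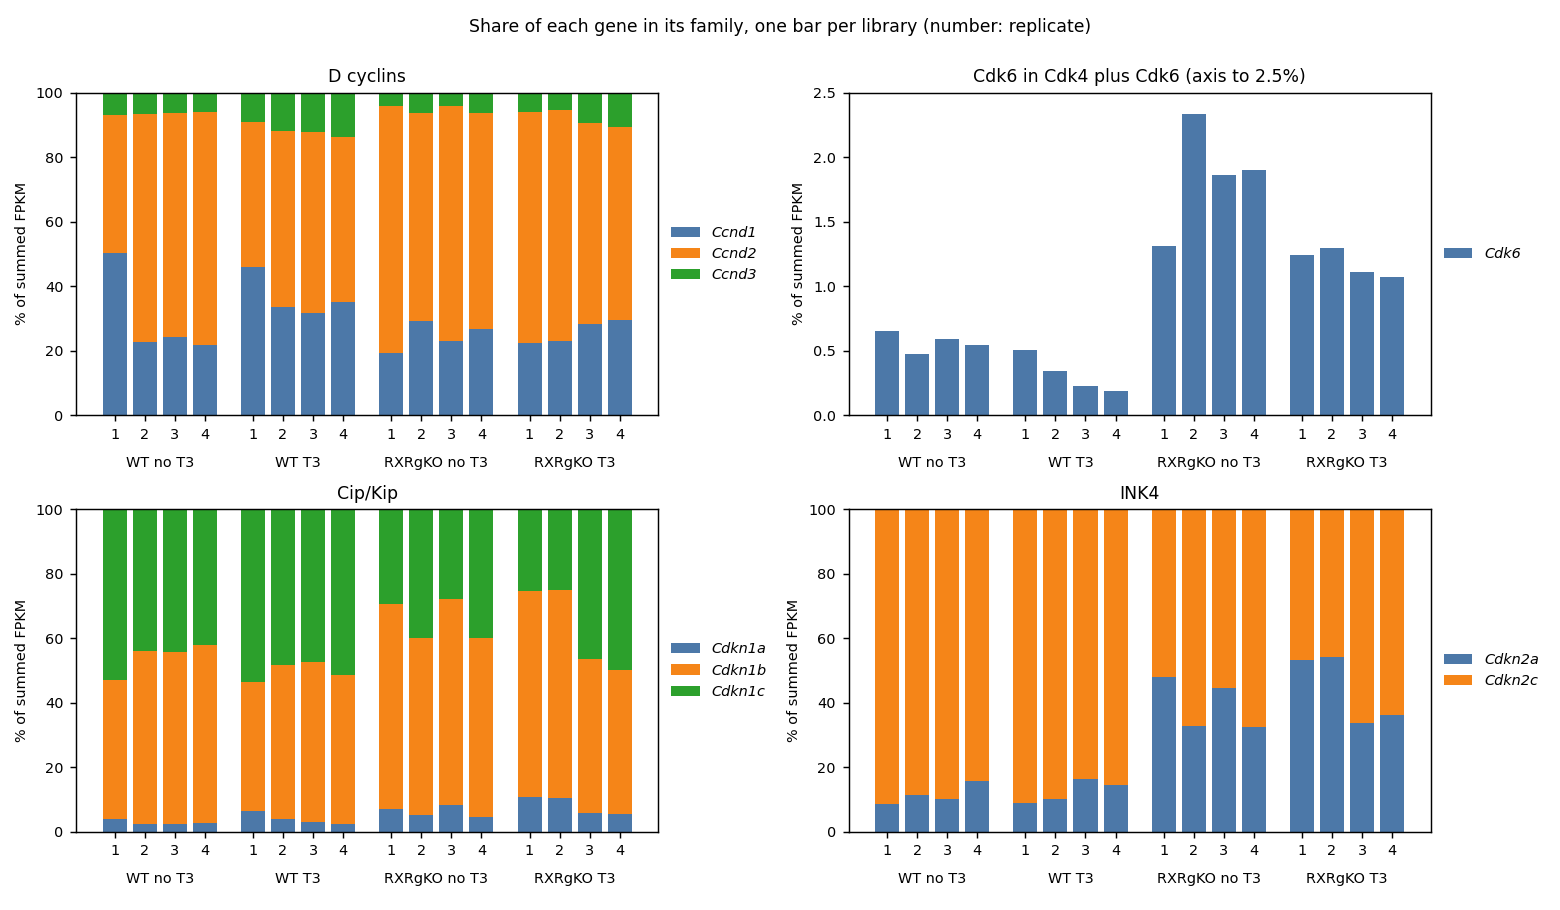
Share of each gene in the summed FPKM of its family (vertical axis, percent, from 0), one bar per library, in 4 panels; the panel of the kinases shows Cdk6 alone on an axis to 2.5%. Cdkn2a took 8.69% to 16.3% of the INK4 pair in WT libraries and 32.3% to 54.3% in RXRgKO libraries.

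Genes of the wider G1/S machinery were counted beside all genes. Of 29 other genes of G1 and the G1/S step (cyclins E and A, CDK2, the retinoblastoma and E2F families, Myc genes and the ubiquitin ligase parts that remove Cdkn1b), 1 was called with T3 in WT, 1 with T3 in RXRgKO, 2 between genotypes without T3 and 4 with T3, where 8.44%, 2.81%, 11.3% and 14.9% of all genes were called. Fitting the library set as a term called 10 with T3 in WT and 14 in RXRgKO, where 6511 and 7080 of 19764 genes were called. Mycn, a Myc-family gene of neural progenitors, changed with T3 in WT by a log2 fold change of -1.22 ± 0.14 (adjusted p = 4.05e-05), from 13.7 to 21.2 CPM down to 7.47 to 8.85 CPM. In RXRgKO its log2 change was -0.46 ± 0.14 (adjusted p = 0.0902), and with T3 it was higher in RXRgKO than in WT by 0.80 ± 0.14 (adjusted p = 0.000764). E2f8, a repressor of the E2F family, changed with T3 in RXRgKO by -0.85 ± 0.20 (adjusted p = 0.0301) and was lower there than in WT with T3. Its T3 call was lost in a fit of only the groups compared and under the replicate block. It was also lost with counts summed per library set and without the RXRgKO libraries with Xist. Ccna2 (cyclin A2) was lower in RXRgKO with T3 by a log2 difference of -0.86 ± 0.21 (adjusted p = 0.0106), and Tfdp2, an E2F partner, was lower in both genotype comparisons (-0.35 and -0.42). Cdkn2b, the INK4 gene next to Cdkn2a, was higher in RXRgKO without T3 by 1.08 ± 0.32 (adjusted p = 0.0353) and its log2 difference with T3 was 0.76 ± 0.31 (adjusted p = 0.123). The Cdkn2b call without T3 was lost with limma voom, under the replicate block, with counts summed per library set and without WT replicate 1. Blocked by replicate number, 2 of the 29 rose and 4 fell with T3 in WT, where 2777 of all genes rose and 2307 fell. With T3, leaving out WT replicate 1, the RXRgKO libraries lacking Xist or those with it raised the genotype count of 4 to 7, 9 and 10, while the count over all genes went from 2943 to 4214, 3116 and 5955.

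In the fit of all libraries by edgeR, 0 of 19 S phase genes (the MCM helicase, Pcna, ribonucleotide reductase and others) were called in any comparison, with list medians of -0.24 to -0.10 on the log2 scale. DESeq2 and limma voom also called 0, and at most 3 had an unadjusted p under 0.05 (RXRgKO against WT with T3). Without the RXRgKO libraries lacking Xist 9 were lower in that comparison, and blocked by replicate number 4 were lower with T3 in WT. Over all genes, 1496 and 2307 were lower in these fits. Under a term for library set, 16 of the 19 were lower with T3 in RXRgKO and 5 in WT, where 2842 and 3016 of all genes were lower. A fit of only the groups compared called 1 with T3 in RXRgKO. Of 15 genes of G2 and mitosis, 0 were called with T3 in WT by edgeR, DESeq2 or limma voom (1 had an unadjusted p under 0.05, and 2 were called under the replicate block), 1 fell with T3 in RXRgKO (Cenpf), 2 were lower in RXRgKO without T3 (Cenpf and Cdc20) and 10 were lower in RXRgKO with T3, where 6.8% of all genes were called lower. The list's median log2 difference in the last comparison was -0.96, and that of all genes was 0.02. Plk1, a mitotic kinase, was at 14.2 to 24.8 CPM in WT with T3 and 5.59 to 8.53 CPM in RXRgKO with T3, a log2 difference of -1.29 ± 0.21 (adjusted p = 0.000421). Cdc20, an activator of the anaphase-promoting complex, differed by -1.19 ± 0.19 and Cenpf, a kinetochore protein, by -1.02 ± 0.15 in the same comparison. Those 10 genes were lower in the comparison where Ccnd2, Cdk6, Cdkn1a and Cdkn2a were higher. The count of 10 was 15 without the RXRgKO libraries lacking Xist and 8 without those with Xist. Over all genes, 1496 and 3405 were lower in these fits. With counts summed per library set the count was 0, where 69 of all genes were lower. With T3 in RXRgKO, 14 were lower without the libraries lacking Xist and 0 were called without those with Xist. Over all genes, 291 and 14 were lower there. Between genotypes without T3 the count of 2 was 8 and 7 without the same libraries, where 1022 and 2620 of all genes were lower. Fitted with the set term, 13 of the 15 were lower with T3 in RXRgKO and 6 in WT, where 2842 and 3016 of all genes were lower.

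Genes that p53 is known to induce were called in both directions. Of 16, 2 rose (Phlda3 and Fas) and 1 fell (Btg2) with T3 in WT, where 4.96% of all genes were called higher and 3.48% lower, and 0 were called by edgeR with T3 in RXRgKO (3 had an unadjusted p under 0.05, limma voom called 0 and DESeq2 1). Blocked by replicate number, 8 rose and 2 fell with T3 in WT, where 2777 of all genes rose and 2307 fell. A term for the set gave 9 higher and 2 lower with T3 in WT, and 5 higher and 2 lower in RXRgKO. Over all genes it gave 3495 higher and 3016 lower in WT, and 4238 higher and 2842 lower in RXRgKO. In RXRgKO without T3, 5 were higher (Eda2r, Aen, Pmaip1, Fas and Tnfrsf10b) and Bbc3 was lower, where 6.17% of all genes were higher and 5.16% lower. With T3, 4 were higher (Perp, Pmaip1, Fas and Tnfrsf10b) and 2 were lower (Bbc3 and Phlda3), where the shares of all genes were 8.1% and 6.8%. Without the RXRgKO libraries lacking Xist 1 was higher and 2 were lower, where 1620 of all genes were higher and 1496 lower. Pmaip1, a pro-apoptotic BH3 gene, differed by 1.63 ± 0.28 without T3 and 1.27 ± 0.27 with T3, and Bbc3, another, by -1.59 ± 0.19 and -1.31 ± 0.19. Mdm2, a standard p53 target, passed the test in no comparison, and neither did Trp53 itself. Of 11 upstream regulators of the inhibitors (FoxO factors, Polycomb proteins and Trp53), Foxo4 and Cbx7 fell with T3 in WT (-0.47 ± 0.14 and -0.83 ± 0.15). Foxo4 was lower in RXRgKO without T3 (-0.55 ± 0.14), and Ezh2, a Polycomb enzyme, was lower with T3 (-0.36 ± 0.12, adjusted p = 0.0492). Under the set term 5 of the 11 were called with T3 in WT and 4 in RXRgKO, where 6511 and 7080 of 19764 genes were called.

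Of 11 genes around Cdkn1c in the imprinted Kcnq1 region, 9 were tested. Nap1l4, Cd81 and Tssc4 rose with T3 in WT, where 4.96% of all genes were called higher, Tssc4 by 0.93 ± 0.13 (adjusted p = 0.000248), from 34.1 to 46.0 CPM up to 65.1 to 87.5 CPM. Tnfrsf23, at under 0.7 CPM in each library, was higher in RXRgKO without T3, and Kcnq1ot1, Nap1l4 and Tssc4 were lower in RXRgKO with T3, where 6.8% of all genes were called lower. A set term called 4 of the 9 with T3 in WT and 5 in RXRgKO, where 6511 and 7080 of 19764 genes were called. Cdkn1c itself was called in none of these comparisons. Cdkn2b, Fas, Btg2, Eda2r, Aen, Perp, Mdm2 and Kcnq1ot1 are named outside the rule for named genes, after their values were seen.

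Markers of the cell types that the cultures could hold were measured in the same libraries. The 10 OPC markers, led by Ptprz1 and Gpr17, summed to 2318 to 5467 CPM, and none of the markers was at 0 in all 4 libraries of a group. The 10 myelin and oligodendrocyte markers summed to 13671 to 18656 CPM in WT without T3, 20570 to 30833 CPM in WT with T3, 1853 to 2465 CPM in RXRgKO without T3 and 3574 to 5703 CPM in RXRgKO with T3. Ccnd2 and Cdk6 thus stood lowest in the group where these markers stood highest, and highest where they stood lowest. Markers of mesenchymal cells (67.0 to 87.7 CPM in WT, 292 to 634 CPM in RXRgKO), ependymal cells (15.5 to 35.5 CPM and 41.3 to 95.1 CPM), endothelial cells (6.91 to 11.0 CPM and 21.3 to 49.2 CPM) and microglia (3.98 to 5.28 CPM and 6.82 to 22.0 CPM) were higher in RXRgKO, as Cdk6 and Cdkn2a were. In untreated RXRgKO libraries lacking Xist, mesenchymal (292 to 385 against 523 to 634 CPM) and endothelial markers (21.34 to 28.91 against 43.67 to 49.19 CPM) were lower than in those with Xist. Cdkn2a was higher there, as were ependymal (62.27 to 75.78 against 41.26 to 48.15 CPM) and microglial markers (18.32 to 22.01 against 13.75 to 15.02 CPM). Called higher in RXRgKO than in WT without T3 were 6 of 8 mesenchymal, 5 of 5 ependymal, 3 of 4 endothelial and 5 of 7 microglial markers tested, and the counts with T3 were equal. Of all genes, 6.17% were called higher without T3 and 8.1% with T3. Of the 10 oligodendrocyte markers, 10 were lower in RXRgKO without T3 and 9 with T3, where 5.16% and 6.8% of all genes were lower. With T3, 7 rose in each genotype, where 4.96% of all genes rose in WT and 2.01% in RXRgKO. Neuronal markers summed to 1307 to 1877 CPM in WT and 1864 to 2513 CPM in RXRgKO. Of 11, 4 fell with T3 in WT, where 3.48% of all genes fell, and 2 were higher in RXRgKO without T3 and 7 with T3. The part of these cell types in the differences of the members was not tested.

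The astrocyte list moved with the library sets in the same way as Cdkn1a did within each genotype. It summed to 8845 CPM in WT replicate 1 against 3506 to 3684 CPM in the other untreated WT libraries, and to 15781 CPM against 5114 to 6142 CPM with T3. Among untreated RXRgKO libraries it summed to 5706 to 6050 CPM without Xist RNA against 3118 to 3209 CPM where Xist was present. OPC markers ran the other way there, at 2666 to 2948 CPM against 4973 to 4982 CPM. Its part in the levels of Cdkn1a and Cdkn2a was not tested.

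The genes whose log2 CPM followed each called member most closely over the 16 libraries were sought among the 10048 or 10049 other protein-coding genes whose mean reached 10 CPM. For Cdk6 they were Cald1 (Pearson r 0.97), Rbms3 (0.96) and Otx2 (0.96). For Ccnd2 they were Mef2c, Pou3f4 and Reps2 (each 0.93), for Cdkn1a Tmem47 (0.97), Cryab (0.96) and Ifitm3 (0.95), and for Cdkn2a 1500009L16Rik (0.96), Arhgdig (0.95) and Pole4 (0.95). These values describe 16 libraries that share 4 groups and the library sets, so the points are not independent.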

How the data were processed

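RNA of 16 mouse OPC libraries was measured in 4 groups of 4. Libraries were made from 200 ng of total RNA by poly-A selection and dUTP marking of the second strand, per the labels' protocols. The authors deposited unnormalised read counts for each Ensembl gene. The submitters' processing notes name HTSeq 0.6.1p1, STAR 2.5.3a, bcl2fastq 2.17.1.14 and mm10, without their order. The annotation release and the strand setting of the counting were not given in the sources used here. HTSeq's 5 summary lines stayed out of all tests (no gene 11.5% to 23.5%, ambiguous 0.995% to 1.90%, several sites 39.6% to 55.0% of reads). Symbols and lengths came from GENCODE M21 on GRCm38 (55154 identifiers matched).

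Counts were scaled by TMM and filtered by group, and 19764 genes were tested in 1 fit of all 16 libraries with a mean per group by edgeR 4.0.16's quasi-likelihood test (R 4.3.3) with Benjamini-Hochberg adjustment and a threshold of 0.05. The SE was taken as |log2 fold change| over the square root of F. The fit was also run on simulated counts of independent libraries without library sets, so that run does not test it under such sets. Correlations used log2 CPM with a prior count of 2. Library sets are libraries with a chi-square per gene under 3, over genes with summed counts of 20 to 500.

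Same-numbered WT libraries with and without T3 deviated together from their group means (r 0.65, 0.25, 0.21 and 0.16). The main fit did not take the numbers as pairs in any comparison, and the replicate block was an alternative fit. The labels do not state a pairing, and replicates 2 and 4 correlated best with another number. Replicate 1 stood apart in both treatments, which moves replicates 2 to 4 the opposite way from the group mean. Their positive r therefore does not show a pairing by number. Same-numbered libraries had r of -0.70 to 0.60 in T3 in RXRgKO and of -0.39 to 0.29 between genotypes.

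The members and lists were chosen with earlier results of these data known. Named are all members, Rxrg, Hr, Klf9, Xist, Ddx3y, up to 4 called genes per list by smallest adjusted p, the highest genes of the cell type lists, and the 3 genes most alike to each called member. Alternatives were DESeq2 1.42.0, limma 3.58.1 (voom), other scaling and filters, the replicate block, library sets, leaving out libraries, and, added after seeing the data, leaving out the RXRgKO libraries with or lacking Xist.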

Additional observations from a re-analysis of the deposited data

Results flagged for a closer look

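In groups of 4, a gene's highest or lowest library was looked at again where its gap to the nearest other library exceeded Dixon's 95% limit as a share of the group's range. Of 40 groups (10 genes by 4), 6 met this, and chance gives about 1 in 20. All 6 were WT replicate 1. Ccnd1 was at 163.4 CPM there without T3, with the others at 47.44 to 53.99 CPM, and at 133.7 CPM with T3, with the others at 39.56 to 44.66 CPM. Ccnd3 was at 41.34 CPM without T3 (others 25.12 to 26.24 CPM) and 48.7 CPM with T3 (others 28.46 to 29.89 CPM). Without T3, Cdkn1a was at 10.73 CPM (others 7.37 to 7.92 CPM) and Cdkn1b at 151.7 CPM (others 209.3 to 221.1 CPM).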

How the results depend on the processing

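Limits are that Rxrg went against the genotype labels, which bears on the direction of every genotype difference, and that the libraries of a group fell into sets: whether these are separate cultures was not tested, and with counts summed per set, which leaves 2 samples per group, 0 of the 10 members were called with T3 in WT, between genotypes without T3 or between genotypes with T3. Of 1020 refits of the members' log2 fold changes, 962 kept direction and side of the threshold, 39 lost a call, 18 gained one and 1 reversed, Cdkn1c with T3 in RXRgKO, at -0.15 without the RXRgKO libraries with Xist. Most of these refits had no call to lose. The main fit called 2 members with T3 in WT, 4 between genotypes without T3 and 4 between genotypes with T3. The causes were not tested.

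For the members, the library set as a term called 5 with T3 in WT and 5 with T3 in RXRgKO (Ccnd1, Ccnd2, Ccnd3, Cdk6 and Cdkn1a in both), and no low-count filter called 1 with T3 in WT. Leaving out the RXRgKO libraries lacking Xist, an alternative chosen after seeing the data, called 2 between genotypes without T3 (Cdk6 and Cdkn2a) and 1 with T3 in RXRgKO (Cdkn1c). Leaving out WT replicate 1 of both treatments called 1 for the difference of the T3 responses (Ccnd2). Leaving out 1 library at a time called 1 to 2 members with T3 in WT, 0 with T3 in RXRgKO, 2 to 3 between genotypes without T3, 3 to 4 with T3 and 0 for the difference. Cdk6 and Cdkn2a were called in each of the genotype fits with 2 members.

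With the replicate number as a block, T3 in WT gave 4 members and 5084 genes, and the block gave 142 genes for T3 in RXRgKO and 1381 between genotypes with T3. Under it Cdkn2a with T3 had a log2 difference of 2.48 (adjusted p = 0.0518, edgeR).

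Genes called in all were 15 (T3 in WT), 3 (T3 in RXRgKO), 141 and 110 (genotypes without and with T3) and 0 (difference, 159 at an unadjusted p under 0.05, edgeR) with counts summed per set, and 6511, 7080 and 1321 (T3 in WT, T3 in RXRgKO, difference) with the set as a term. DESeq2 called 1003 with T3 in RXRgKO and 78 for the difference, and a filter of 1 CPM in 4 libraries called 20 for the difference. Without WT replicate 1 the counts were 2688 (T3 in WT) and 118 (difference), without the RXRgKO libraries with Xist 129 (T3 in RXRgKO), 4518 and 5955 (genotypes without and with T3), and without those lacking Xist 26 (difference). Leaving out 1 library at a time gave 997 to 2475 (T3 in WT), 253 to 500 (T3 in RXRgKO), 1712 to 2206 and 2178 to 3195 (genotypes without and with T3) and 3 to 49 (difference). By the longest transcript, mean levels were 275.84 FPKM for Cdk4, 50.933 for Ccnd2, 7.6551 for Cdkn1a and 8.6664 for Ccnd3.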
